A study of Danio rerio with 8 samples.

Results

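Open chromatin in the zebrafish embryo was most crowded in 300 windows of 50 kb that together held 4473 of the 137841 accessible regions found in whole tp63 mutant and WT embryos. The windows were chosen by the measured values themselves. The ATAC-seq peaks of 4 lists were merged into union regions wherever peaks overlapped by at least 1 bp, chromosomes 1 to 25 were tiled in 50 kb windows from their first base, each region was assigned to a window by its midpoint, and the 300 windows with the most regions were kept. Their high region counts, and the counts of peaks that add up to them, are therefore a description of the choice and not a result. The kept windows span 15 Mb in the GRCz10 (danRer10) assembly, make up 1.176% of the 25507 windows with at least 1 region, and hold 3.317% of the 134837 regions on the assembled chromosomes.

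The 4 lists come from 8 ATAC-seq libraries of whole embryos, with 2 replicates for each genotype and stage: tp63 -/- mutants at 36 hours post fertilization (hpf), WT at 36 hpf, tp63 -/- mutants at 8 somites and WT at 8 somites. The mutants carry a small CRISPR-made deletion in an exon common to the tp63 isoforms, which leads to an early stop. Several embryos were pooled for each library at 36 hpf, whereas each library at 8 somites was of 1 embryo from heterozygous parents, so stage and input material cannot be told apart. Each list had been built from both replicates of its group, so every comparison is between single lists, the variation between embryos is not known for any difference, and no test was possible between genotypes or stages.

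ATAC-seq reads out where the Tn5 transposase can insert adapters into DNA, which happens mainly at promoters and enhancers that nucleosomes leave free. Accessible elements are not spread evenly along vertebrate chromosomes. They gather around gene-rich stretches and around developmental genes, which are often served by many enhancers over long distances. The transcription factor p63 is needed for the epidermis and other stratified epithelia to form, and the comparison of mutant and WT embryos at an early and a late stage addresses which regions open or stay open without it. No gene annotation or genome sequence of the GRCz10 assembly was used here, so the windows are given by position alone.

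The kept windows had 13 to 24 regions each, with a median of 14, against a median of 5 over all windows with a region. Regions covered a median of 11.16% of the bases of a kept window, against 3.642% over all windows with a region. The limit fell inside a large tie. All 248 windows with 14 or more regions were kept, and of the 209 windows with 13 regions the 52 with the lowest chromosome numbers were kept, all on chromosomes 1 to 6, while 157 were left out. The last 2 windows kept were chr6:50450001-50500000 and chr6:50600001-50650000, and the first 2 left out were chr6:55950001-56000000 and chr6:57650001-57700000, all with 13 regions. The spread of the 300 windows over chromosomes thus partly follows the rule for ties. For that reason the chromosomes are compared over the 248 windows above the tie. By that measure chromosome 21 had the highest share, with 14 windows or 1.61% of its windows with a region. Chromosome 10 followed with 1.37% and chromosome 11 with 1.36%, and chromosome 16 had the lowest with 0.462%. The order changed with the limit. Over all windows with 13 or more regions, chromosome 15 had the highest share with 3.08%. Chromosome 1 followed with 3.01% and chromosome 21 with 2.64%, and chromosome 16 was again lowest with 1.2%.

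The densest window, chr25:35750001-35800000, had 24 regions, and these were largely the same regions in every list. It held 20 tp63 mutant and 19 WT peaks at 36 hpf, and 18 tp63 mutant and 19 WT peaks at 8 somites. Of its regions, 15 had a peak in all 4 lists and 3 had a peak in 1 list only. Regions there were 198 to 591 bp wide, and neighbouring regions were separated by a median of 968 bp and by at most 6858 bp. Its region with the highest fold enrichment in any list lay at chr25:35753163-35753497 and had a fold enrichment over background of 11.6 in the mutant and 9.72 in WT at 36 hpf, and of 10 in the mutant and 14.2 in WT at 8 somites.

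The second densest window, chr23:36000001-36050000, was put together quite differently. It had 23 regions, of which only 3 had a peak in all 4 lists. It held 15 tp63 mutant and 12 WT peaks at 36 hpf, and 11 tp63 mutant and 19 WT peaks at 8 somites. The mutant thus had more peaks than WT at 36 hpf and fewer at 8 somites. Of its regions, 9 had peaks in exactly 3 lists, and the list without a peak was tp63 mutant 8 somites for 6 of these and WT 36 hpf for the other 3. A further 5 regions had a peak in both genotypes at 8 somites only and 2 in both genotypes at 36 hpf only. The region with the highest fold enrichment, chr23:36039232-36039675, had no mutant peak at 8 somites, where WT had a fold enrichment of 7.57. At 36 hpf it had a fold enrichment of 3.76 in the mutant and 3.99 in WT.

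**Figure D1:**
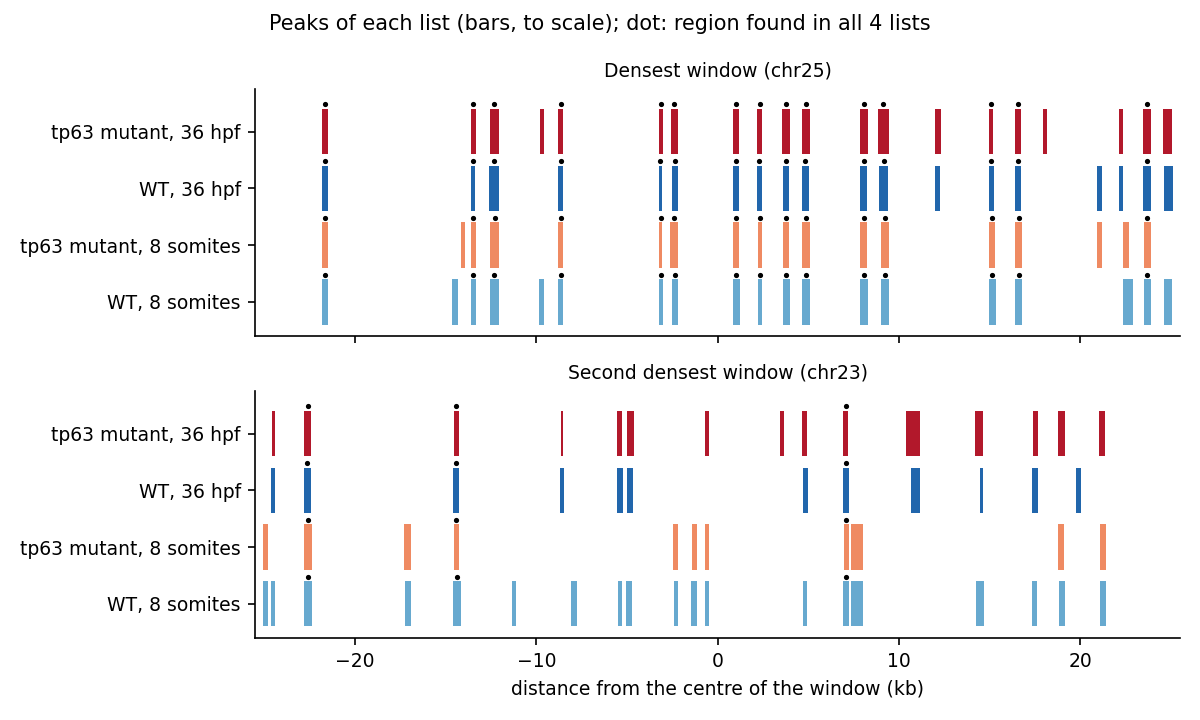
Peaks of the 4 lists in the densest window (top, chr25) and the second densest window (bottom, chr23), drawn to scale against the distance in kb from the centre of the window, with 1 row per list and a dot over each peak of a region found in all 4 lists. The chr25 window has 15 such regions and the chr23 window has 3, although the windows hold 24 and 23 regions in all.

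The other 8 of the 10 densest windows also varied in how many regions the lists shared. The third, chr3:1400001-1450000, had 22 regions with 14 mutant and 16 WT peaks at 36 hpf, and 13 mutant and 17 WT peaks at 8 somites. Its region with the highest fold enrichment, chr3:1421164-1421610, was in all 4 lists, with a fold enrichment of 7.77 in the mutant and 8.54 in WT at 36 hpf, and of 8.88 in the mutant and 8.36 in WT at 8 somites. In the sixth, chr25:34600001-34650000, 19 of 22 regions were in all 4 lists, and the mutant and WT lists had 20 and 21 peaks at 36 hpf and 20 and 19 at 8 somites. In the ninth, chr19:20150001-20200000, 5 of 21 regions were in all 4 lists, and the mutant and WT lists had 14 and 12 peaks at 36 hpf and 11 and 16 at 8 somites. The remaining windows of the 10 were chr16:36400001-36450000 and chr17:11150001-11200000 with 22 regions each, chr7:73600001-73650000 and chr13:45800001-45850000 with 21 each, and chr1:58500001-58550000 with 20. Across the 10 windows the peaks of a list ranged from 11 to 21 per window.

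**Figure D2:**
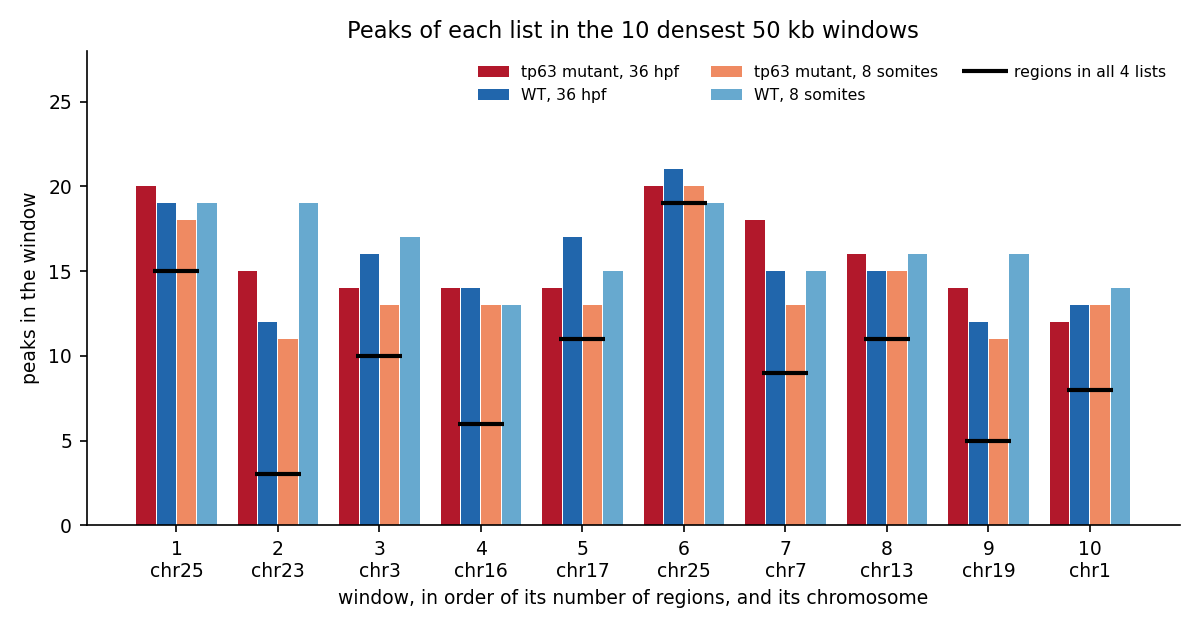
Peaks of each list (bars, in peaks per window) in the 10 windows with the most regions, in order of their region count and marked with their chromosome, and the number of regions with a peak in all 4 lists (black lines). The sixth window has 19 regions in all 4 lists and the second has 3, with lists of 11 to 21 peaks.

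Over the 300 windows, 1679 of 4473 regions had a peak in all 4 lists. This was 37.54% (Wilson 95% interval 36.13 to 38.97), against 30.36% (30.11 to 30.61) of the 130364 regions in all other windows. These intervals, like all those given here, cover counting error only, since regions of 1 window are not independent. Regions found in 1 list only made up 26.38% (25.11 to 27.69) of the regions in dense windows and 34.56% (34.3 to 34.82) of those elsewhere. The next 300 windows by rank, which include the tied windows left out, had 36.97% of their regions in all 4 lists and 26.8% in 1 list only, so the composition did not break at the limit. Between windows the share in all 4 lists ranged from 0.0% to 87.5%, with a median of 36.6% and quartiles of 26.7% and 47.1%. The highest share was in chr7:6300001-6350000, with 14 of 16 regions. It was 0 in chr7:4100001-4150000, with 15 regions, and in chr4:3550001-3600000, with 13 regions.

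The combinations of lists were shifted toward regions with peaks in both genotypes at 36 hpf. Regions with a peak in both genotypes at 36 hpf and in neither at 8 somites made up 8.093% (7.329 to 8.929) of those in dense windows and 5.744% (5.619 to 5.872) of those elsewhere. The matching share for both genotypes at 8 somites only was 7.735% (6.988 to 8.555) in dense windows and 8.242% (8.093 to 8.392) elsewhere, with overlapping intervals. Regions found in the mutant list alone were 5.008% (4.406 to 5.686) in dense windows and 5.613% (5.489 to 5.739) elsewhere at 36 hpf, with overlapping intervals, and 4.471% in dense windows and 6.558% elsewhere at 8 somites. Regions found in the WT list alone were 6.752% in dense windows and 8.754% elsewhere at 36 hpf, and 10.15% in dense windows and 13.63% elsewhere at 8 somites. Regions that followed the genotype at both stages were few. Both mutant lists and no WT list had a peak in 0.693% (0.4887 to 0.982) of the regions in dense windows and in 0.8867% elsewhere, and both WT lists and no mutant list in 2.101% (1.72 to 2.565) in dense windows and 2.826% (2.737 to 2.917) elsewhere.

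**Figure D3:**
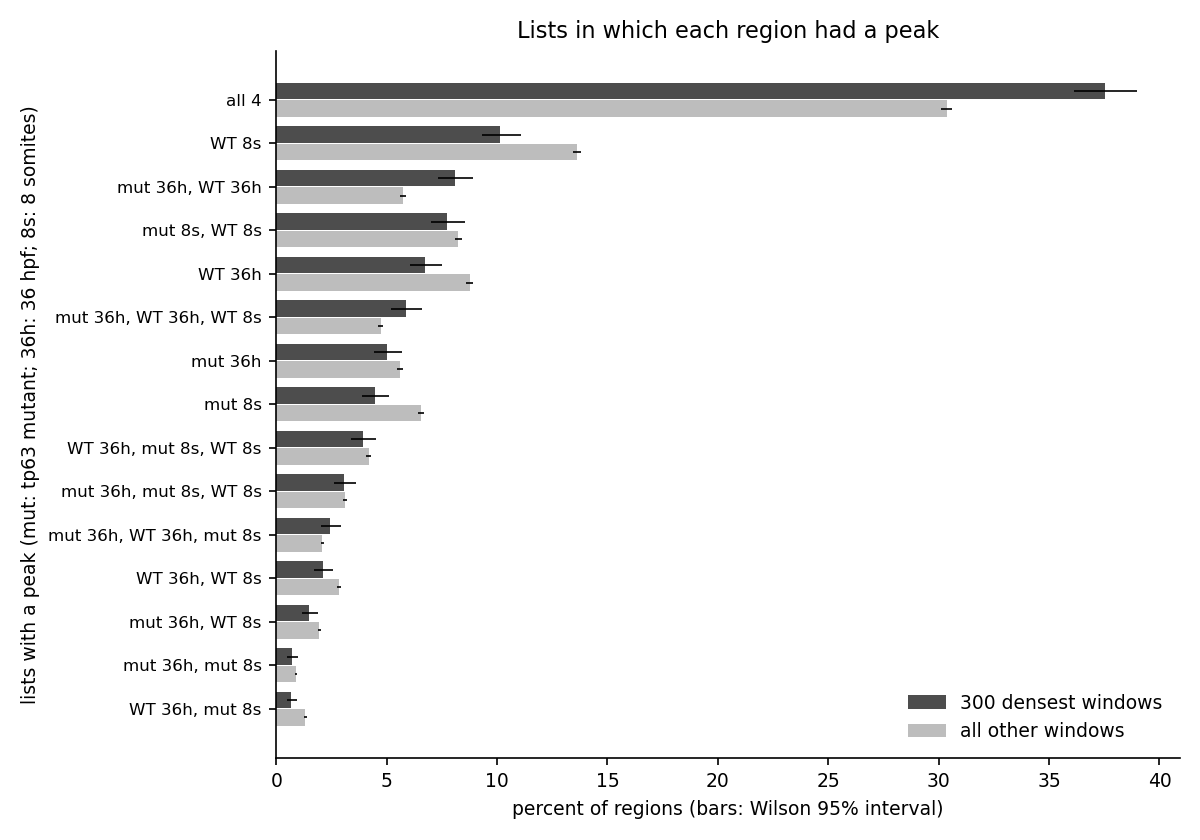
Percent of regions with each combination of lists in the 300 densest windows (dark bars, above) and in all other windows of chromosomes 1 to 25 (light bars, below), with Wilson 95% intervals. Regions in all 4 lists make up 37.54% of those in dense windows and 30.36% elsewhere, and each of the 4 classes with a peak in 1 list is a smaller share in dense windows.

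Peak counts per dense window differed modestly between the lists. The mutant list had 2914 peaks in the 300 windows at 36 hpf, or 9.71 per window, and the WT list had 3086, or 10.3 per window. At 8 somites the mutant list had 2769 peaks, or 9.23 per window, and the WT list 3255, or 10.8 per window. Single windows held 2 to 20 mutant and 3 to 21 WT peaks at 36 hpf, and 2 to 20 mutant and 3 to 19 WT peaks at 8 somites, so that no dense window was empty in any list. In the deposited lists as a whole, which differ in length, the mutant and WT lists had 76556 and 84703 peaks at 36 hpf, and 79893 and 96625 peaks at 8 somites.

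The mutant lists were shorter than the WT lists inside the dense windows too. At 36 hpf there were 94.43 mutant peaks for every 100 WT peaks in dense windows (89.77 to 99.33) and 90.34 (89.44 to 91.26) elsewhere. At 8 somites there were 85.07 mutant peaks for every 100 WT peaks in dense windows (80.87 to 89.49) and 82.5 (81.71 to 83.3) elsewhere. The intervals overlapped at 36 hpf and at 8 somites. They treat the peaks of the 2 lists as independent, although most peaks had a counterpart in the other list. Nothing is therefore concluded from the overlap. With the 300 windows chosen on the 2 lists at 8 somites alone, which take no part in the ratio at 36 hpf, the ratio was 94.34 in dense windows and 90.36 elsewhere. With windows chosen on the 2 lists at 36 hpf, the ratio at 8 somites was 85.91 in dense windows and 82.48 elsewhere. Windows chosen on the lists of a genotype move this ratio toward that genotype by construction, so these choices cannot test the gap to other windows. Chosen on the WT lists, they gave 90.73 in dense windows and 90.48 elsewhere at 36 hpf, and 83.23 and 82.57 at 8 somites. Chosen on the mutant lists, they gave 101.4 in dense windows and 90.07 elsewhere at 36 hpf, and 91.06 and 82.29 at 8 somites. With the same number of top-ranked peaks taken from every list, the ratio was 102.5 in dense windows and 99.98 elsewhere at 36 hpf, and 100.1 in dense windows and 99.87 elsewhere at 8 somites. Lists of equal size bring this ratio near 100 over the genome by construction, so these values cannot show whether the mutant had fewer peaks.

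Set against the other stage, dense windows held relatively more peaks at 36 hpf than the rest of the genome did. In the mutant there were 105.2 peaks at 36 hpf for every 100 at 8 somites in dense windows (99.9 to 110.9) and 95.74 (94.76 to 96.72) elsewhere. In WT there were 94.81 in dense windows (90.25 to 99.59) and 87.43 (86.6 to 88.27) elsewhere. With windows chosen on the WT lists alone, the mutant value was 104.2 (98.92 to 109.7) in dense windows and 95.77 elsewhere, and with windows chosen on the mutant lists alone, the WT value was 96.21 (91.59 to 101.1) in dense windows and 87.38 elsewhere. Windows chosen on the 2 lists of 1 stage move the ratio toward that stage by construction. Chosen on the lists at 36 hpf they gave 122.7 in the mutant and 109.9 in WT, and chosen on the lists at 8 somites they gave 90.49 in the mutant and 81.85 in WT. With the same number of top-ranked peaks taken from every list, the stage ratio was 110.7 in dense windows and 99.89 elsewhere in the mutant, and 108.1 in dense windows and 99.77 elsewhere in WT. Lists of equal size bring this ratio near 100 over the genome by construction. The part of the input, which differed between the stages, was not tested.

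Window by window, the mutant list at 36 hpf had more peaks than the WT list in 97 of the 300 windows (32.3%), where 23.4% of all windows did, and fewer in 148 (49.3%), where 41.1% of all windows did. At 8 somites the mutant list had more in 39 (13%), where 18.0% of all windows did, and fewer in 218 (72.7%), where 51.6% of all windows did. The mutant list had more peaks at 36 hpf than at 8 somites in 143 windows (47.7%), where 32.0% of all windows did, and fewer in 111 (37.0%), where 39.3% of all windows did. The WT list had more at 36 hpf in 104 windows (34.7%), where 27.4% of all windows did, and fewer in 154 (51.3%), where 47.6% of all windows did. Ties were rarer in dense windows, which hold more peaks, so both directions can exceed the background at once.

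The stage difference of a dense window was compared between the genotypes, and the genotype difference between the stages. These pairs of differences share no list. Both genotypes had more peaks at 36 hpf than at 8 somites in 71 windows (23.7%), where 13.3% of all windows did, and both had fewer in 86 windows (28.7%), where 24.0% of all windows did. The genotypes went opposite ways in 64 windows (21.3%), where 16.8% of all windows did. The mutant had more peaks than WT at both stages in 8 windows (2.67%), where 3.82% of all windows did, and fewer at both stages in 104 windows (34.7%), where 21.2% of all windows did. The sign of the genotype difference changed with the stage in 100 windows (33.3%), where it did in 20.1% of all windows. Over the 300 windows, the stage differences of the 2 genotypes had a Spearman correlation of 0.5, against 0.32 over all windows. The genotype differences at the 2 stages had one of -0.062, against -0.0077 over all windows. In neither set did a deficit at 1 stage go with a deficit at the other. Differences of at least 3 peaks were also counted. None of the 300 windows had at least 3 more peaks in the mutant than in WT at both stages, where 6 of all 25507 windows (0.0235%) did. At least 3 fewer at both stages were found in 14 of the 300 windows and in 160 of all 25507 (0.627%). At least 3 more peaks at 36 hpf in both genotypes were found in 24 of the 300 windows and in 246 of all 25507 (0.964%). At least 3 fewer were found in 26 of the 300 windows and in 568 of all 25507 (2.23%). A window with more peaks can reach a difference of 3 more easily.

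**Figure D4:**
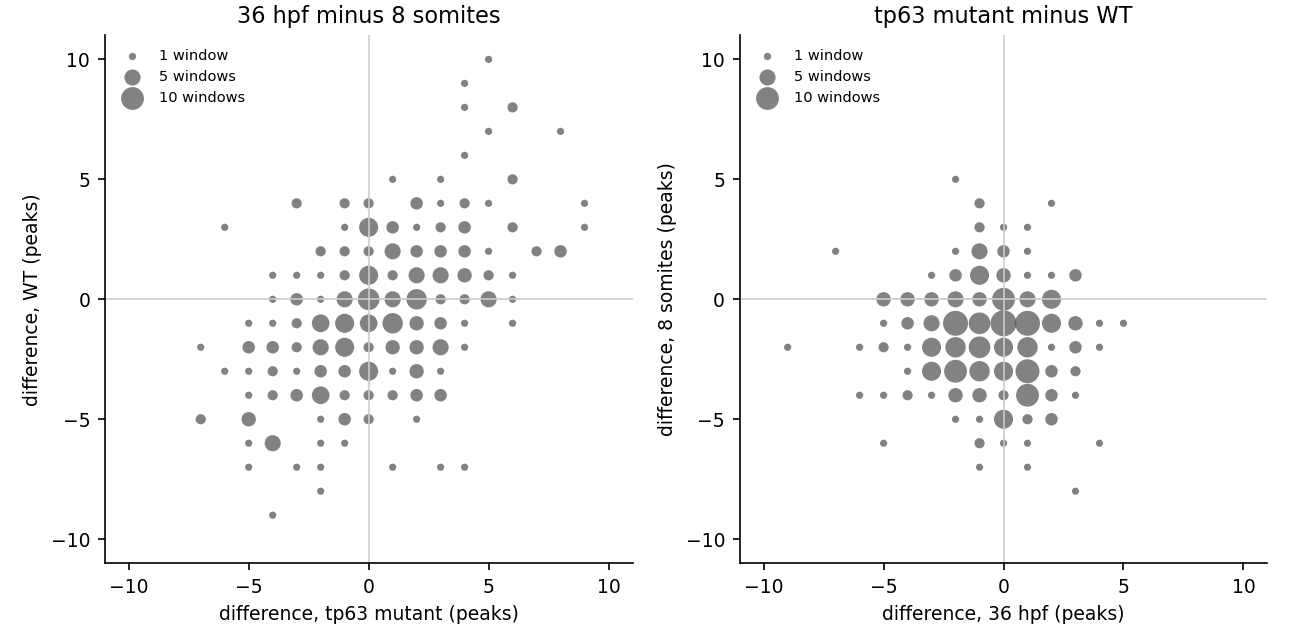
Differences in peaks per window in the 300 densest windows, with marker area in proportion to the number of windows at a point: left, 36 hpf minus 8 somites in the tp63 mutant (horizontal) and in WT (vertical); right, tp63 mutant minus WT at 36 hpf (horizontal) and at 8 somites (vertical). On the left, both genotypes have more peaks at 36 hpf in 71 windows and fewer in 86. On the right, 218 of the 300 windows lie below 0 at 8 somites.

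The windows with the largest excesses at 36 hpf had regions found in both genotypes at 36 hpf only, in differing numbers. In chr23:27200001-27250000, with 18 regions, the mutant had 15 peaks at 36 hpf and 6 at 8 somites, and WT had 14 and 10. There, 5 regions had a peak in both genotypes at 36 hpf only and none in both genotypes at 8 somites only. In chr16:54050001-54100000, with 16 regions, the mutant had 14 peaks at 36 hpf and 5 at 8 somites, and WT had 12 and 9. In that window 4 regions had a peak in both genotypes at 36 hpf only, and 3 only in the mutant list at 36 hpf. In chr8:34200001-34250000, with 17 regions, the mutant had 11 peaks at 36 hpf and 6 at 8 somites, and WT had 16 and 6. Only 2 of its regions had a peak in both genotypes at 36 hpf only, and 5 were found only in the WT list at 36 hpf. The window chr7:4100001-4150000, 1 of the 2 without any region in all 4 lists, had 7 mutant peaks at 36 hpf and 3 at 8 somites, and 12 WT peaks at 36 hpf and 3 at 8 somites. Of its 15 regions, 6 had a peak in both genotypes at 36 hpf only, and 4 were found only in the WT list at 36 hpf. All 4 windows had more peaks at 36 hpf in both genotypes.

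The largest deficits at 36 hpf, of 7 peaks in the mutant and of 9 and 8 peaks in WT, were in the following windows. In chr8:52750001-52800000 the mutant had 5 peaks at 36 hpf and 12 at 8 somites, and WT had 7 and 12. In chr5:68000001-68050000 the mutant had 5 and 12, and WT had 6 and 8. Another window had the same deficit in the mutant, chr17:45900001-45950000, where the mutant had 2 and 9 peaks and WT had 4 and 9. In chr24:38950001-39000000 the mutant had 5 peaks at 36 hpf and 9 at 8 somites, and WT had 5 and 14. In chr11:42750001-42800000 the mutant had 5 and 7, and WT had 5 and 13. In each of these 5 windows, both genotypes had fewer peaks at 36 hpf. The chromosome 24 and chromosome 11 windows each had 5 regions found only in the WT list at 8 somites.

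The largest genotype differences at 36 hpf were deficits in the mutant. In chr18:49950001-50000000, with 17 regions, the mutant had 5 peaks and WT had 14 at 36 hpf, and the mutant had 8 and WT had 10 at 8 somites. Here 6 regions were found only in the WT list at 36 hpf, and 3 more had a peak in every list but that of the mutant at 36 hpf. In chr21:45500001-45550000, with 15 regions, the mutant had 5 and WT had 12 at 36 hpf, and the mutant had 11 and WT had 9 at 8 somites. The deficit of the chromosome 18 window was thus in the same direction at both stages and that of the chromosome 21 window was not. The largest excesses in the mutant at 36 hpf were smaller. They were in chr14:32300001-32350000, with 12 mutant and 7 WT peaks, and in chr17:45200001-45250000, with 13 mutant and 9 WT peaks, which was level with chr5:23800001-23850000 (11 mutant and 7 WT peaks) and chr7:900001-950000 (7 mutant and 3 WT peaks). At 8 somites the chromosome 14 and chromosome 17 windows had 10 mutant and 11 WT peaks, and 5 mutant and 7 WT peaks. The chromosome 5 window had 8 mutant and 14 WT peaks at 8 somites, and the chromosome 7 window 7 and 8. In the chromosome 17 window 6 of 19 regions were found only in the mutant list at 36 hpf.

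At 8 somites the largest deficit in the mutant was that of the second densest window, on chromosome 23, described above. The next, a deficit of 7 peaks, was shared by chr2:29950001-30000000 and chr24:350001-400000. The first had 6 mutant and 13 WT peaks at 8 somites, and 7 mutant and 6 WT peaks at 36 hpf. The second had 8 mutant and 15 WT peaks at 8 somites, and 12 mutant and 13 WT peaks at 36 hpf. Of the 19 regions of the chromosome 24 window, 4 had a peak in every list but that of the mutant at 8 somites. The largest excesses in the mutant at 8 somites were in chr18:50700001-50750000, with 12 mutant and 7 WT peaks, and in chr5:68000001-68050000, with 12 mutant and 8 WT peaks, which was level with chr14:14500001-14550000 (13 mutant and 9 WT peaks) and chr2:52750001-52800000 (10 mutant and 6 WT peaks). At 36 hpf the chromosome 18 and chromosome 5 windows had 9 mutant and 11 WT peaks, and 5 mutant and 6 WT peaks. The chromosome 14 window had more mutant peaks at 36 hpf too, 9 against 7 in WT, and chr2:52750001-52800000 had 6 mutant and 7 WT peaks.

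Peaks in dense windows were less often missing from the list of the other genotype. At 36 hpf, 16.16% (14.87 to 17.54) of the 2914 mutant peaks in dense windows had no overlapping WT peak, against 21.32% elsewhere and 21.1% of mutant peaks in all. In the other direction, 19.8% (18.43 to 21.24) of the 3086 WT peaks in dense windows had no mutant peak at 36 hpf, against 28.29% elsewhere and 28.0% in all. At 8 somites, 13.65% (12.42 to 14.98) of the 2769 mutant peaks in dense windows had no WT peak, against 19.09% elsewhere and 18.9% in all. Of the 3255 WT peaks in dense windows at 8 somites, 27.31% (25.81 to 28.87) had no mutant peak, against 33.5% elsewhere and 33.3% in all. These shares also differed by the rank of a peak, and in each list peaks of lower rank lacked a counterpart more often. With the peaks elsewhere weighted to the rank deciles of those in dense windows, the shares elsewhere were 19.87% for the mutant and 26.98% for WT at 36 hpf, and 17.68% for the mutant and 31.8% for WT at 8 somites, so each stayed above that in dense windows. The weighting used the rank by p-value only. Fold enrichment was lower in dense windows within each rank decile, and its part in the difference was not tested. A peak in a crowded window also has more bases within its reach that are covered by peaks of the other list, and the part of this in the difference was not tested.

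Between the stages the shift was uneven. Among mutant peaks at 36 hpf, 31.88% (30.21 to 33.6) in dense windows had no mutant peak at 8 somites, against 33.29% elsewhere and 33.2% in all. Among WT peaks at 36 hpf, 26.67% (25.14 to 28.26) in dense windows had no WT peak at 8 somites, against 29.81% elsewhere and 29.7% in all. Among mutant peaks at 8 somites, 27.52% (25.89 to 29.21) in dense windows had no mutant peak at 36 hpf, against 35.59% elsewhere and 35.3% in all. Among WT peaks at 8 somites the share was 31.24% (29.67 to 32.86) in dense windows, against 38.81% elsewhere and 38.5% in all. Peaks of 8 somites in dense windows thus had a counterpart at 36 hpf more often than those elsewhere, while the share for mutant peaks of 36 hpf was close to its background.

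Although dense windows held more shared regions, the fold enrichment of their peaks was lower. The median fold enrichment at 36 hpf was 5.48 in dense windows and 6.5 elsewhere in the mutant, and 5.34 in dense windows and 6.15 elsewhere in WT. At 8 somites it was 6.28 in dense windows and 7.36 elsewhere in the mutant, and 6.44 in dense windows and 7.9 elsewhere in WT. Peaks of equal rank by −log10 p-value differed in the same direction. In each list, the median fold enrichment in dense windows was below that elsewhere in 10 of 10 rank deciles, at 0.765 to 0.865 times the value elsewhere. The deposited −log10 p-values had no such gap, with medians of 24.6 in dense windows and 23.9 elsewhere for the mutant and of 20.3 and 19.9 for WT at 36 hpf. At 8 somites the medians were 19.4 in dense windows and 18.6 elsewhere for the mutant, and 21.6 and 20.8 for WT. Few of the strongest peaks by fold enrichment were in dense windows, where between 2.92% and 4.01% of the peaks of a list were in its strongest decile, against 10.2% elsewhere. By −log10 p-value the shares at 36 hpf were 6.97% in dense windows and 10.1% elsewhere in the mutant, and 8.17% and 10.1% in WT. At 8 somites they were nearer to those elsewhere, with 9.39% in dense windows and 10% elsewhere in the mutant, and 9.12% and 10% in WT. How the background behind the fold enrichment was set is not given in the sources used here.

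Both patterns ran across the range of density, though not at every step. Of the regions in windows with 1 to 2 regions, 21.83% (20.88 to 22.8) were in all 4 lists, and the share was 29.39% with 5 to 6 regions, 34.42% with 9 to 10, 38.11% (36.66 to 39.58) with 13 to 14 and 37.3% (35.33 to 39.31) with 15 to 24 regions. Median fold enrichment at 36 hpf was 6.74 in the mutant and 6.31 in WT with 1 to 2 regions, and 6.81 and 6.33 with 3 to 4. It was 5.21 in the mutant and 5.08 in WT with 15 to 24 regions. At 8 somites it was 7.66 in the mutant and 8.22 in WT with 1 to 2 regions, and 5.96 in the mutant and 6.13 in WT with 15 to 24 regions. The number of peaks at 36 hpf for every 100 at 8 somites was 87.8 in the mutant and 80.4 in WT with 1 to 2 regions, and 106 in the mutant and 97.4 in WT with 15 to 24 regions. Since a window with few regions is also a window chosen for having few, these classes describe the lists and carry no test.

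**Figure D5:**
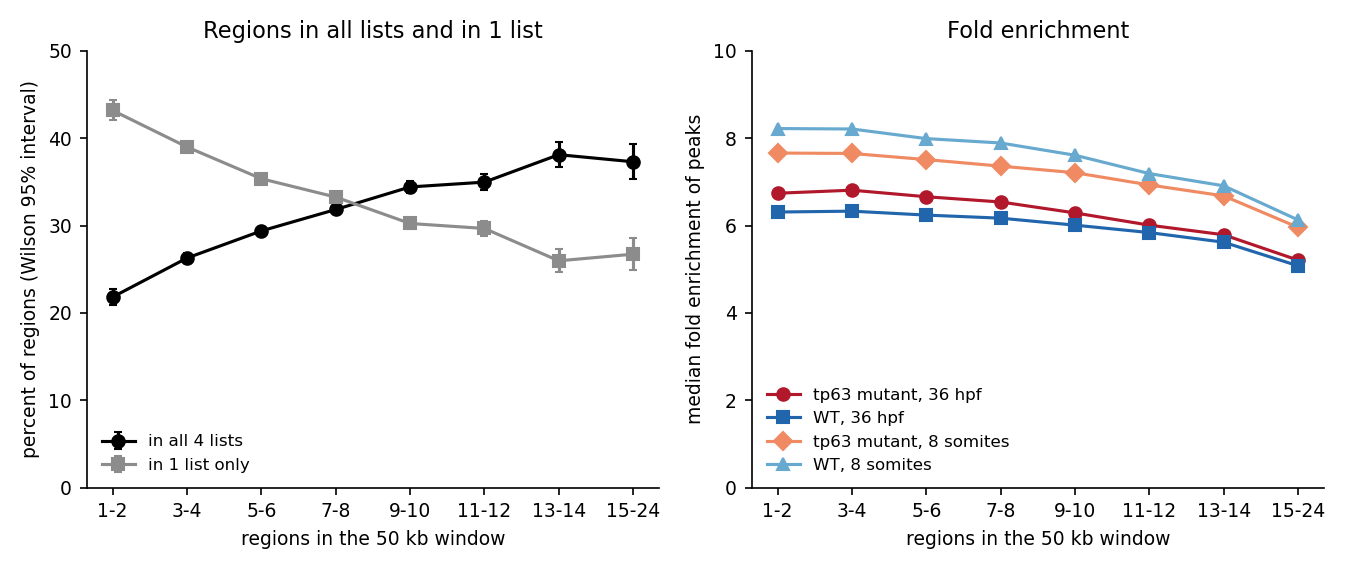
Windows of chromosomes 1 to 25 grouped by their number of regions (horizontal axis): left, percent of regions with a peak in all 4 lists (black) and in 1 list only (grey), with Wilson 95% intervals; right, median fold enrichment of the peaks of each list. The share in all 4 lists is 21.83% in the sparsest class and 37.3% in the densest, and the median fold enrichment is lowest in the densest class in each list.

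The regions themselves were of ordinary size. Their median width was 343 bp in dense windows and 346 bp elsewhere, and 125 regions in dense windows (2.79%) were at least 800 bp wide, against 2.4% elsewhere. Regions in all 4 lists had a median width of 439 bp in dense windows and 449 bp elsewhere, and regions in 1 list of 248 bp and 267 bp. Regions in 3 lists had medians of 350.5 bp in dense windows and 382 bp elsewhere, and regions in 2 lists of 327.5 bp and 343 bp. Within each number of lists, the median was thus lower in dense windows. Summits, the points of highest signal, lay about as close together in dense windows as elsewhere. In the 1553 regions of dense windows with exactly 1 peak in each list, the summits of mutant and WT were a median of 13 bp apart at either stage, against 13 bp at 36 hpf and 14 bp at 8 somites elsewhere. The summits of 36 hpf and 8 somites were a median of 18 bp apart in the mutant and 17 bp in WT, against 16 bp and 15 bp elsewhere.

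Dense windows were mostly isolated, in denser than usual surroundings. Of the 300, 265 had no other kept window beside them, and the other 35 formed 15 runs. The windows beside a kept one had a median of 8 regions, against 5 beside any window, and 8.83% of them had 13 or more regions, against 1.78%. The longest run was chr13:51500001-51700000, with 63 regions over 4 windows. It held 34 mutant and 41 WT peaks at 36 hpf, and 38 mutant and 49 WT peaks at 8 somites, so each list of the mutant was shorter than that of WT. The 3 runs of 3 windows were chr2:58650001-58800000 with 45 regions, chr3:1350001-1500000 with 51 and chr4:1-150000 with 43.

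Many dense windows were close to a chromosome end. Within 2 Mb of the first or last peak of their chromosome lay 76 of the 300 windows (25.3%), against 7.74% of the other windows, and 71 of the 248 windows above the tie (28.6%). The share of regions in all 4 lists was 37.31% (34.59 to 40.11) in the dense windows near an end and 37.62% (35.98 to 39.28) in the 224 away from the ends. Median fold enrichment in dense windows near an end and away from the ends was 5.4 and 5.5 in the mutant and 5.23 and 5.36 in WT at 36 hpf, and 5.77 and 6.52 in the mutant and 5.89 and 6.64 in WT at 8 somites. All of these were below the medians elsewhere in the genome. The stage ratio of the mutant differed more between the classes: 93.4 peaks at 36 hpf for every 100 at 8 somites near an end and 110 away from the ends, with 91.5 and 96.0 in WT. Windows outside the 300 had 87.0 near an end and 96.8 away from the ends in the mutant, and 86.3 and 87.6 in WT. Of the 18 dense windows on chromosome 4, 5 lay in its first 2 Mb and 1 lay beyond 30 Mb.

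Each list on its own would have named partly different windows. The 300 windows with the most peaks in a list included 149 of the kept windows for the mutant and 166 for WT at 36 hpf, and 143 for the mutant and 166 for WT at 8 somites. Mutant and WT shared 166 of these 300 windows at 36 hpf (55.3%) and 154 at 8 somites (51.3%), whereas lists of different stages shared 116 to 129. In all 4 lists, 72 windows (24.0%) were among the 300. Across all 25507 windows, the Spearman correlation of peaks per window was 0.824 between mutant and WT at 36 hpf, 0.799 between mutant and WT at 8 somites and 0.715 to 0.719 between lists of different stages. Inside the 300 windows, where the choice narrows the range, it was 0.69 between the genotypes at 36 hpf, 0.63 between the genotypes at 8 somites and 0.28 to 0.29 between lists of different stages. These values are descriptions.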

How the data were processed

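ATAC-seq was made from 8 libraries of whole zebrafish embryos in 4 groups of 2 replicates, and the authors deposited 1 peak list for each group. Per the submitters' processing notes, Bowtie2 and SAMtools were used (versions not given in the sources used here) with the GRCz10 (danRer10) assembly. The methods state that distant read pairs were removed, Tn5 cuts were offset and widened, and peaks were kept by the irreproducible discovery rate (IDR) between replicates. The peak caller is not given in the sources used here. The study used 2 kinds of sequencer, and which library ran on which is not given either. In the deposited lists each peak has a fold enrichment (a linear ratio over background), a −log10 p-value, a summit and a −log10 global IDR, a score whose listed IDR is at most 0.1. Read depth is unknown from peak lists, and no value per replicate was used.

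Peaks were merged, assigned to windows and compared in Python 3.11.15 (numpy 2.4.6, pandas 2.3.3, scipy 1.17.1, matplotlib 3.10.9). A counterpart is a peak of the other list overlapping by at least 1 bp. Peaks were ranked within a list by −log10 p-value, ties by fold enrichment. The merged regions and the overlaps matched bedtools 2.31.1 exactly, both for simulated lists and for those of the study, and 300 of 300 dense windows planted in simulated lists were recovered. The planted windows stood far above their background, so the recovery checks the counting and not the choice near the limit. Shares and ratios have Wilson 95% intervals, which cover counting error only. Those of ratios treat the peaks of the 2 lists as independent, although most peaks had a counterpart in the other list. Regions on unplaced scaffolds lie outside the window rule. The members and the windows named were chosen with earlier results of these data known. Named windows are the 10 densest, the 2 on each side of the limit and, for each genotype or stage difference, the 2 with the largest excess and the 2 with the largest deficit, ties going to the window earlier in the order of density. Windows level with the second were added after their values were seen.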

Additional observations from a re-analysis of the deposited data

Results flagged for a closer look

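The stage ratio lay on opposite sides of 100 in the genotypes. In dense windows the tp63 mutant had 105.2 peaks at 36 hpf for every 100 at 8 somites, and WT had 94.81. The interval in the mutant, 99.9 to 110.9, includes 100. It ignores that most peaks were matched between the lists, so it cannot place the ratio on a side of 100. The other windows had a similar gap, with 95.74 in the mutant and 87.43 in WT. The difference was not tested. With lists of equal size both genotypes were above 100, at 110.7 in the mutant and 108.1 in WT. The other windows then had 99.89 and 99.77. Lists of equal size bring the ratio near 100 over the genome by construction, so these values cannot show what sets the side of 100. The side also changed in WT with a global IDR of at most 0.01, at 104.4. It changed with windows chosen at 36 hpf in WT, at 109.9, and with windows chosen at 8 somites in the mutant, at 90.49. Choosing on the lists of a stage moves the ratio toward that stage by construction.

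The windows named above, without those added for ties, were searched for genotype differences that changed sign. In 7 of them the mutant minus WT difference in peaks had opposite signs at the stages and changed by at least 6 peaks. It was 3 at 36 hpf and -8 at 8 somites in chr23:36000001-36050000, and 2 and -5 in chr19:20150001-20200000. In chr14:32300001-32350000 it was 5 at 36 hpf and -1 at 8 somites, in chr17:45200001-45250000 it was 4 and -2, and in chr16:54050001-54100000 it was 2 and -4. The other 2 of the 7 windows went the opposite way, with -7 at 36 hpf and 2 at 8 somites in chr21:45500001-45550000 and -2 and 5 in chr18:50700001-50750000. Among the windows added for ties, chr5:23800001-23850000 and chr2:29950001-30000000 also met this limit. The first had 11 mutant and 7 WT peaks at 36 hpf, and 8 mutant and 14 WT peaks at 8 somites. The second had 7 mutant and 6 WT peaks at 36 hpf, and 6 mutant and 13 WT peaks at 8 somites. With 1 list per group these differences were not tested, and these windows were named for large counts or differences. They are not the only such windows, since the rest of the 300 were not searched. For example, chr3:6050001-6100000 also met the limit, with 12 mutant and 10 WT peaks at 36 hpf, and 9 and 14 at 8 somites. Opposite signs at the stages, of any size, were found in 100 of the 300 windows (33.3%) and in 20.1% of all windows.

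Unplaced scaffolds, which the choice of windows does not cover, also had crowded windows. Of 799 scaffold windows with a region, 10 (1.25%) had 13 or more regions, against 1.79% on chromosomes 1 to 25, and the most in 1 window was 20. The 799 windows lay on 648 scaffolds, so many can be shorter than 50 kb, and the shares are not directly comparable. These 10 windows had 151 regions, 27.2% of them in all 4 lists, with 94 mutant and 92 WT peaks at 36 hpf, and 84 mutant and 106 WT peaks at 8 somites.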

How the results depend on the processing

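The values over dense windows were recomputed under 18 alternatives, of which keeping every window with at least 14 or at least 13 regions was chosen after seeing the data. Of 184 values, 121 stayed within the interval of the value given above, or within 1.5 times the region count, and 63 did not. The cause was not tested for those that moved. The share of regions in all 4 lists was above that in other windows under all 16 alternatives run for it. It was 39.42% and 40.46% with a global IDR of at most 0.05 and 0.01, 39.94% with lists of equal size, 39.01% with peaks up to 100 bp apart merged and 42.99% with windows ranked by bases covered. With windows chosen on a pair of lists, it was 42.88% (mutant), 40.39% (WT), 43.72% (36 hpf) and 42.02% (8 somites). Choosing on a pair favours windows whose regions have peaks in those lists, so this share can rise by construction. The 100 densest windows held 1686 regions and the 600 densest 8230.

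Mutant peaks for every 100 WT peaks came to 102.5 at 36 hpf and 100.1 at 8 somites with lists of equal size. Elsewhere they came to 99.98 and 99.87. Lists of equal size bring this ratio near 100 by construction, so these values cannot show whether the mutant had fewer peaks. With windows chosen on the mutant lists, there were 101.4 mutant peaks for every 100 WT peaks at 36 hpf and 91.06 at 8 somites. With windows chosen on the WT lists, there were 90.73 and 83.23. Choosing on the lists of a genotype moves this ratio toward that genotype by construction. The stage ratio of the mutant was 112.1 and 123.2 with a global IDR of at most 0.05 and 0.01, 122.7 with windows chosen at 36 hpf and 90.49 with windows chosen at 8 somites. That of WT was 104.4 with a global IDR of at most 0.01, 108.1 with lists of equal size, 109.9 with windows chosen at 36 hpf and 81.85 with windows chosen at 8 somites. Only windows chosen at 8 somites put the stage ratios below those of other windows, among the 16 alternatives run. The shares of peaks without a counterpart in the other genotype were below those of other windows under all 18 alternatives. They ranged from 12.83% to 19.05% (mutant) and 14.22% to 23.56% (WT) at 36 hpf. At 8 somites they ranged from 8.612% to 17.99% (mutant) and 18.69% to 28.79% (WT). Choosing windows on the lists of the other genotype favours windows that hold counterparts, so this share can fall by construction. The lowest shares at 36 hpf, 12.83% (mutant) and 14.22% (WT), came from such choices. The gap nearly closed for mutant peaks at 36 hpf with a global IDR of at most 0.01, at 14.82% in dense windows and 15.56% elsewhere.

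No paired analysis was possible because each group has 1 list made from both replicates, and for the same reason no replicate was left out. Unknown read depth, list length, the sequencers and the input at each stage limit every comparison of lists.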
